A study of Mus musculus with 4 samples.

Results

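The genes of 10 enzymes of serine synthesis and folate-bound carbon transfer were followed in Neuro-2a cells, a mouse neuroblastoma line, after exposure to the pyrethroid insecticide deltamethrin. They were Phgdh, Psat1, Psph, Shmt1, Shmt2, Mthfd1, Mthfd2, Mthfd1l, Aldh1l1 and Aldh1l2, picked by name through the platform's probe annotation, and all 10 were found, each with 1 probe set, among 19505 named genes on 22206 probe sets. Cells in the deltamethrin group received 30 µM of the compound for 24 h, and cells in the vehicle group received 0.1% DMSO for the same time. The labels do not say in so many words whether the deltamethrin medium held the same share of DMSO. Each group had 2 arrays, and all 4 came from the same line of albino strain A origin, grown in medium with 10% serum. The labels do not state whether the 2 arrays of a group stem from separate cultures, so the p-values cover the spread between these arrays alone, and that spread may be technical. The number of arrays limits the precision, and with no batch label used, a batch and the exposure cannot be told apart.

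Serine is made from a glycolytic intermediate in the cytosol. PHGDH oxidises phosphoglycerate, PSAT1 transfers an amino group from glutamate, and PSPH removes the phosphate. Serine then gives up a carbon unit to tetrahydrofolate, and the loaded folate is oxidised or used for purine, thymidylate and methionine synthesis. Cytosol and mitochondria each hold their own set of enzymes for this. SHMT1, MTHFD1 and ALDH1L1 act in the cytosol, while SHMT2, MTHFD2, MTHFD1L and ALDH1L2 act in mitochondria and can send the carbon out as formate or burn it to CO2. Several of these genes, among them Phgdh, Psat1, Shmt2, Mthfd2 and Aldh1l2, are known targets of ATF4, the transcription factor of the integrated stress response.

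In deltamethrin-treated cells Aldh1l2 rose 3.46-fold, and it was the only member called, that is with an adjusted p below 0.05 in limma over all probe sets. The background share of probe sets called in either direction was 0.432%, with 0.356% called higher and 0.0766% called lower, against 1 of 10 members higher and 0 of 10 lower. At an unadjusted p below 0.05 in the same fit, 3 members were higher (Aldh1l2, Psph and Phgdh) and 0 were lower, where 13.7% of all probe sets passed that threshold, 6.83% higher and 6.84% lower. The same shares stand behind each count given below at an unadjusted p in this fit. Alternative fits have counts of their own over all probe sets, given with them. The median log2 fold change of the 10 members was -0.04, beside -0.02 over all probe sets, and 4 estimates lay above 0 and 6 below. Over all probe sets 10309 estimates lay above 0 and 11744 below. The arrays of the 2 groups did not overlap for 6 of 10 members, 3 of them higher and 3 lower, where the share over all probe sets was 43.9% (20.3% higher and 23.5% lower). Since such separation was common across the array, the count of 6 is not a result about these enzymes. Estimates given below are log2 fold changes, deltamethrin minus vehicle, with their SE.

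Promoter sequence is shown for the 3 serine synthesis genes, whose estimates ran from -0.06 to 0.60, and for Shmt2 and Shmt1, which encode the same reaction in mitochondria and cytosol. RefSeq promoter windows (GRCm38.p6) were matched for 9 of 10 members, all but Aldh1l2. The 250 bases before the annotated start are printed 5′ to 3′ in the direction of the gene. Capitals mark CCAAT boxes (CCAAT on either strand) and the antioxidant response core TGACNNNGC (either strand), the element bound by NRF2. They are Phgdh at chr3:98339970-98340219 (- strand), Psph at chr5:129787254-129787503 (- strand), Psat1 at chr19:15925060-15925309 (- strand), Shmt2 at chr10:127522445-127522694 (- strand) and Shmt1 at chr11:60811266-60811515 (- strand).
Phgdh: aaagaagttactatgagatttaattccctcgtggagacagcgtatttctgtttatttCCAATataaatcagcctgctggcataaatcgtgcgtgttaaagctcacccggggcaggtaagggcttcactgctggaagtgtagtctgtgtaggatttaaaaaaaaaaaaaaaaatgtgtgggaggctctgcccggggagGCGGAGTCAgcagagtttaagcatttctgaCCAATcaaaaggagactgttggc
Psph: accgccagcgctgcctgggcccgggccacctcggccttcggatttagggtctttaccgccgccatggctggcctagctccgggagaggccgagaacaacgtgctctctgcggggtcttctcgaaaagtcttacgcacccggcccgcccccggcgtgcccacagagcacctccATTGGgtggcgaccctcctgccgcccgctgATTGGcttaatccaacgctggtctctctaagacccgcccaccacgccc
Psat1: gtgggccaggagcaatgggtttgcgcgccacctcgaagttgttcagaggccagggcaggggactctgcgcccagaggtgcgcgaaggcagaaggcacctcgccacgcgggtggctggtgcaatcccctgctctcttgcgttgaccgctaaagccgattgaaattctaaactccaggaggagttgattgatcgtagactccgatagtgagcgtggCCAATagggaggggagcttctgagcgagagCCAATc
Shmt2: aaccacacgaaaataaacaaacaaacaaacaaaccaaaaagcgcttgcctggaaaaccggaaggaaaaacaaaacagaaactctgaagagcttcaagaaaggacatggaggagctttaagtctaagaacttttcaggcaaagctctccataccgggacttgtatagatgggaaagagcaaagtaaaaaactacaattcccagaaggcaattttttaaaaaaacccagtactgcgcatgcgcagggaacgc
Shmt1: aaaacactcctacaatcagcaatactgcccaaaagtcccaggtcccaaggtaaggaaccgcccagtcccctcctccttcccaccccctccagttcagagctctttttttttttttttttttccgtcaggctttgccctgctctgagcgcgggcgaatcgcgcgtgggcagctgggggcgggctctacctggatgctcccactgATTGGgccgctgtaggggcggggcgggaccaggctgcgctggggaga
No 2 marked matches overlap, and of the 2 windows listed for Psat1 the outermost is shown.

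A CCAAT box was present in the 250-base windows of 7 of the 9 matched genes (Phgdh, Psph, Psat1, Mthfd2, Aldh1l1, Shmt1 and Mthfd1), where 33.8% of 32851 windows of the same length held it. Shmt2 and Mthfd1l had no such box in this window. The antioxidant core was found in Phgdh alone, at position -53 from the start, and in 10.2% of all windows. The composite ATF4 and C/EBP core TGATGNAA (either strand) was found in 0 of the 9 genes' windows and in 3.45% of all windows. The cAMP response element TGACGTCA (1.55% of all windows) and the E-box CACGTG (6.02%) were likewise not found in these windows. These matches describe letters only and carry no statement on factor binding. Member counts were by gene, from 10 windows of the 9 genes, while the shares were by window, and the difference was not tested.

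**Figure D1:**
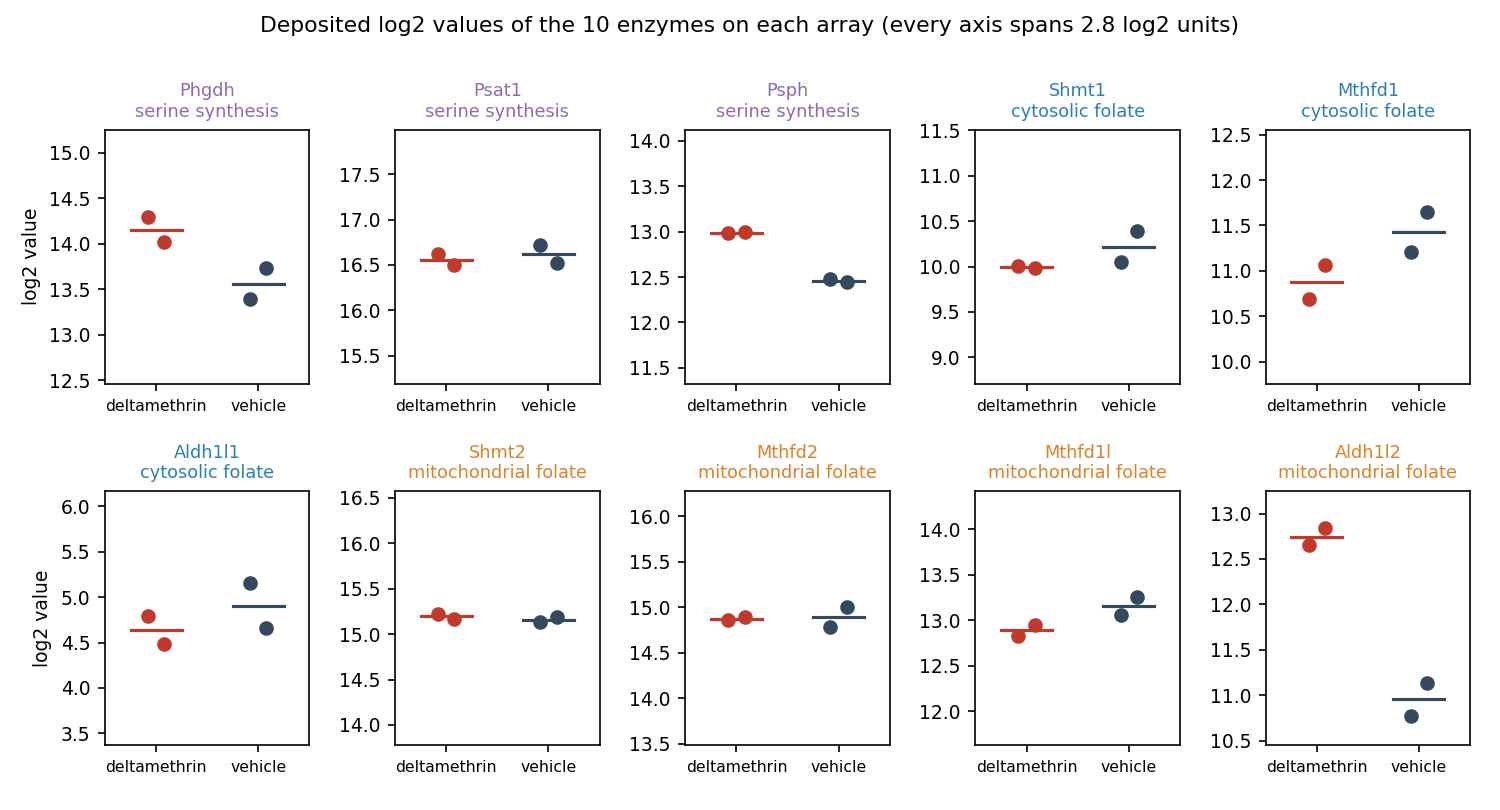
Log2 value of each enzyme gene (vertical axis) on the 2 deltamethrin arrays and the 2 vehicle arrays (points), with a horizontal line at each group's mean. For Aldh1l2 the deltamethrin arrays lie at 12.65 and 12.84 and the vehicle arrays at 10.77 and 11.14, while the points of Shmt2, Mthfd2, Psat1 and Aldh1l1 overlap between the groups.

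The mitochondrial arm was split. Aldh1l2, the mitochondrial formyltetrahydrofolate dehydrogenase that releases the carbon as CO2 and makes NADPH, had log2 values of 12.65 and 12.84 in deltamethrin-treated cells, against 10.77 and 11.14 in vehicle-treated cells. Both exposed arrays were above both vehicle arrays, with a gap much wider than either pair's spread. The group means were 12.75 ± 0.13 with deltamethrin and 10.96 ± 0.26 with vehicle (SD, n = 2 each). Its log2 fold change was 1.79 ± 0.20 (SE, limma adjusted p = 0.0330), with a 95% interval of 1.31 to 2.27, or 2.48-fold to 4.82-fold. That estimate stood at percentile 99.8 of all probe sets. The call was lost when any 1 array was left out, where the lone array of a group was taken to vary like the other group. With all 4 arrays it was also lost with the replicate number as a block (limma adjusted p = 0.180) and without moderation of the variances (adjusted p = 0.409). With 1 array left out, the estimate was 1.61 (limma adjusted p = 0.678) without vehicle replicate 1, 1.98 (0.542) without vehicle replicate 2, 1.89 (0.451) without deltamethrin replicate 1 and 1.70 (0.364) without deltamethrin replicate 2.

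The other 3 mitochondrial enzymes did not pass the test. Shmt2, which makes glycine and loads the folate in mitochondria, had log2 values of 15.22 and 15.17 with deltamethrin, against 15.13 and 15.19 with vehicle. Its groups overlapped and its log2 fold change was 0.04 ± 0.16 (SE, limma adjusted p = 0.952). Mthfd2, the mitochondrial dehydrogenase and cyclohydrolase, had log2 values of 14.86 and 14.89 with deltamethrin, against 14.78 and 15.00 with vehicle. The exposed arrays lay inside the vehicle pair, and the estimate of -0.02 ± 0.17 had a 95% interval of -0.43 to 0.40. Mthfd1l, which releases formate for export, had log2 values of 12.83 and 12.95 with deltamethrin, against 13.06 and 13.26 with vehicle. Both exposed arrays were below both vehicle arrays, by an estimate of -0.27 ± 0.17 (limma adjusted p = 0.555). For Shmt2 and Mthfd2 the upper interval bounds of 0.43 and 0.40 lay below the lower bound of Aldh1l2, 1.31, and so did that of Mthfd1l, 0.15.

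All 3 cytosolic folate enzymes had estimates below 0, as did 11744 of all 22206 probe sets. In limma 0 of the 3 passed the test, with 0 at an unadjusted p below 0.05 as well. Mthfd1, the cytosolic enzyme that joins the dehydrogenase, cyclohydrolase and formate-activating steps in 1 protein, had log2 values of 10.69 and 11.07 with deltamethrin, against 11.21 and 11.65 with vehicle. Both exposed arrays were the lower ones, and the log2 fold change was -0.55 ± 0.23 (SE, limma adjusted p = 0.366). Shmt1, the cytosolic counterpart of Shmt2, had log2 values of 10.01 and 9.98 with deltamethrin, against 10.05 and 10.39 with vehicle. Both exposed arrays were lower, but by as little as 0.04, less than the vehicle pair's own spread, and the estimate was -0.23 ± 0.19.

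Aldh1l1, the cytosolic counterpart of Aldh1l2 and a gene often used to mark astrocytes, had log2 values of 4.79 and 4.48 with deltamethrin, against 5.15 and 4.66 with vehicle. All 4 values were under 5.60, the array-wide median level, and the groups overlapped, with an estimate of -0.27 ± 0.23. The table holds no detection call, so whether this probe set was above background cannot be said.

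**Figure D2:**
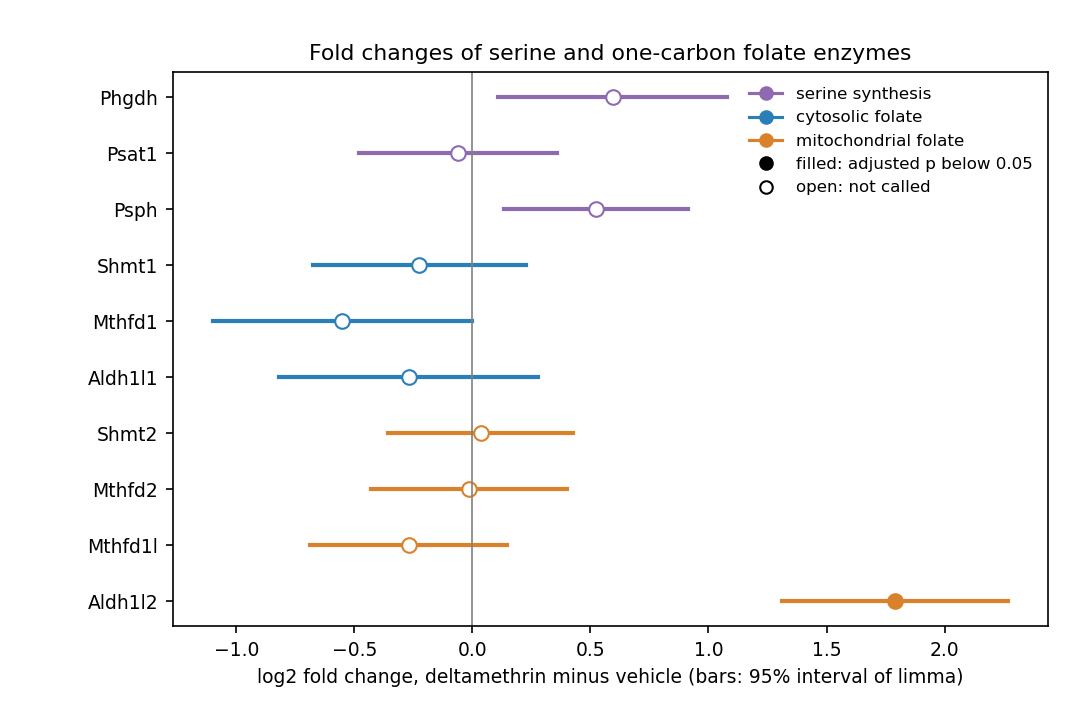
Log2 fold change (horizontal axis, deltamethrin minus vehicle) of each enzyme gene, with the 95% interval of limma as a bar, coloured by serine synthesis, cytosolic folate and mitochondrial folate. The Aldh1l2 interval of 1.31 to 2.27 is apart from all others, the intervals of Phgdh and Psph lie above 0 without passing adjustment, and the remaining 7 reach or cross 0.

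In the serine synthesis branch 0 of 3 genes passed in limma, and 2 were higher at an unadjusted p below 0.05, beside 6.83% of all probe sets. Phgdh, the entry enzyme, had log2 values of 14.29 and 14.02 with deltamethrin, against 13.39 and 13.73 with vehicle. The exposed arrays were both higher, and the log2 fold change was 0.60 ± 0.20 (SE, limma adjusted p = 0.287; 95% interval 0.11 to 1.08). Psph, the closing phosphatase, had log2 values of 12.98 and 12.99 with deltamethrin, against 12.48 and 12.44 with vehicle. Its arrays differed by 0.01 to 0.04 within a group and its estimate was 0.53 ± 0.16 (limma adjusted p = 0.250). Psph was called higher when limma took the variance as a trend on the mean level (adjusted p = 0.0427), and Phgdh was not (adjusted p = 0.0545). That setting called 2 of 10 members, both higher, beside 3.63% of all probe sets in either direction and 2.25% higher.

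Psat1, the aminotransferase between those steps, had log2 values of 16.62 and 16.50 with deltamethrin, against 16.72 and 16.52 with vehicle. The groups overlapped, and the estimate was -0.06 ± 0.17 (95% interval -0.48 to 0.36). It was among the brightest probe sets of the array, with a mean at percentile 99.4 of all probe sets, where the array maxima were 18.65 to 18.75.

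Cytosol and mitochondria were then compared directly. Averaged over genes, the mitochondrial folate enzymes stood 0.35 and 0.42 above their vehicle mean on the deltamethrin arrays, against -0.11 and 0.11 on the vehicle arrays (log2, 4 genes). The cytosolic folate enzymes stood at -0.36 and -0.34 on the deltamethrin arrays, against -0.05 and 0.05 on the vehicle arrays (log2, 3 genes). Apart from Aldh1l2, the mitochondrial estimates were 0.04, -0.02 and -0.27. The median log2 fold change was 0.01 for the 4 mitochondrial and -0.27 for the 3 cytosolic genes. The mean log2 fold changes were 0.39 for the mitochondrial and -0.35 for the cytosolic genes, a difference of 0.73. That difference was 0.27 without Aldh1l2 and 0.30 without both Aldh1l2 and the dim Aldh1l1. With the serine synthesis genes, whose mean was 0.35, counted on the cytosolic side it was 0.38. No test was made of these averages, since the genes were chosen with earlier results known.

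For isozyme pairs the difference between the mitochondrial and the cytosolic gene was taken within each array, as a description of unequal change. The exact permutation test given below could not decide whether the change was unequal, since its smallest possible p with these arrays was 0.333. The genes of the pairs were also chosen with earlier results known. For Aldh1l2 minus Aldh1l1 the within-array difference, set to 0 at the vehicle mean, was 1.81 and 2.31 with deltamethrin, against -0.43 and 0.43 with vehicle. For Shmt2 minus Shmt1 it was 0.27 and 0.25 with deltamethrin, against 0.14 and -0.14 with vehicle. In both pairs the exposed arrays were above the vehicle arrays, but in the Shmt pair by no more than the vehicle pair's spread.

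For Mthfd2 minus Mthfd1 the within-array difference was 0.71 and 0.36 with deltamethrin, against 0.11 and -0.11 with vehicle. For Mthfd1l minus Mthfd1 it was 0.41 and 0.15 with deltamethrin, against 0.12 and -0.12 with vehicle. There the lower exposed array was close to the higher vehicle array. These 2 pairs share Mthfd1 and are not independent. The mean differences were 2.06, 0.26, 0.54 and 0.28 for the Aldh1l, Shmt, Mthfd2 and Mthfd1l pairs. In each of the 4 pairs the exact two-sided permutation test over arrays gave p = 0.333, also after Benjamini-Hochberg adjustment, which is the smallest p that 2 arrays against 2 allow, so the design cannot reach 0.05 for any of them.

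**Figure D3:**
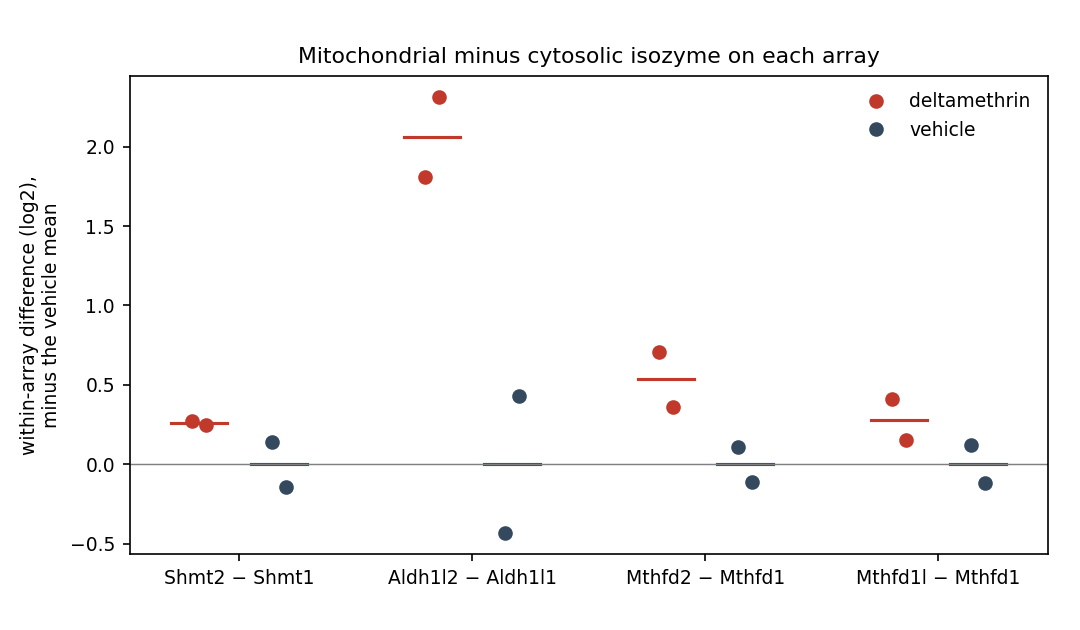
Within-array log2 difference between mitochondrial and cytosolic isozyme (vertical axis, shifted so that the vehicle mean is 0) for the 4 pairs, with points for arrays and lines for group means. The deltamethrin arrays of the Aldh1l pair lie at 1.81 and 2.31, and in the other 3 pairs they lie between 0.15 and 0.71.

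The folate pathway around these enzymes was covered by lists of supply, use and end products. In the folate supply and transport list 0 of 10 measured genes passed in limma, 2 were lower at an unadjusted p below 0.05 (6.84% of all probe sets), and the median log2 fold change was -0.09. Tyms, which makes thymidylate with a folate-bound carbon, had log2 values of 12.35 and 12.16 with deltamethrin, against 12.91 and 12.80 with vehicle. Both exposed arrays were lower, by an estimate of -0.60 ± 0.17 (SE, limma adjusted p = 0.224), and with a mean-variance trend it was called lower (adjusted p = 0.0368), as were 1.38% of all probe sets. Mthfd2l, a mitochondrial relative of Mthfd2, had log2 values of 8.87 and 8.63 with deltamethrin, against 9.20 and 9.30 with vehicle, an estimate of -0.50 ± 0.18. Both of its exposed arrays were the lower ones.

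Among genes of serine and glycine use and transport 0 of 12 measured passed in limma, 3 were higher at an unadjusted p below 0.05 (6.83% of all probe sets), and the median was 0.15. Slc6a9, the glycine transporter GlyT1, had log2 values of 13.17 and 13.03 with deltamethrin, against 12.30 and 12.40 with vehicle. It did not overlap between groups, and its estimate was 0.75 ± 0.17 (limma adjusted p = 0.152). Amt, the aminomethyltransferase of the mitochondrial glycine cleavage system, had log2 values of 5.25 and 5.64 with deltamethrin, against 4.33 and 4.03 with vehicle. Its estimate was 1.27 ± 0.21 (limma adjusted p = 0.0881). The gene was dim in both groups, with means of 5.445 with deltamethrin and 4.18 with vehicle, under the array-wide median level. Slc6a9 and Amt were called higher with a mean-variance trend in limma (adjusted p = 0.0119 and 0.0292). So was Slc1a4, a neutral amino acid and serine transporter (adjusted p = 0.0306), which was named after its values were seen. That setting called 3 of the 12 genes higher, beside 2.25% of all probe sets.

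In purine synthesis, which takes carbon from formyltetrahydrofolate, 0 of 9 measured genes passed in limma, 2 were higher at an unadjusted p below 0.05 (6.83% of all probe sets), and the median was -0.12. Those 2 were Adssl1, the muscle form of adenylosuccinate synthase, at 0.70 ± 0.16 (SE, limma adjusted p = 0.168), and Impdh1, an enzyme of guanine nucleotide synthesis, at 0.60 ± 0.22 (limma adjusted p = 0.311). Adssl1 was dim in both groups, under the array-wide median level. In the methionine and methylation cycle 0 of 8 measured genes passed in limma, 0 had an unadjusted p below 0.05, and the median was 0.14. The smallest p there belonged to Ahcyl2, a relative of the homocysteine-forming hydrolase, at 0.33 ± 0.19, and to Ahcy, that hydrolase itself, at -0.25 ± 0.18.

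**Figure D4:**
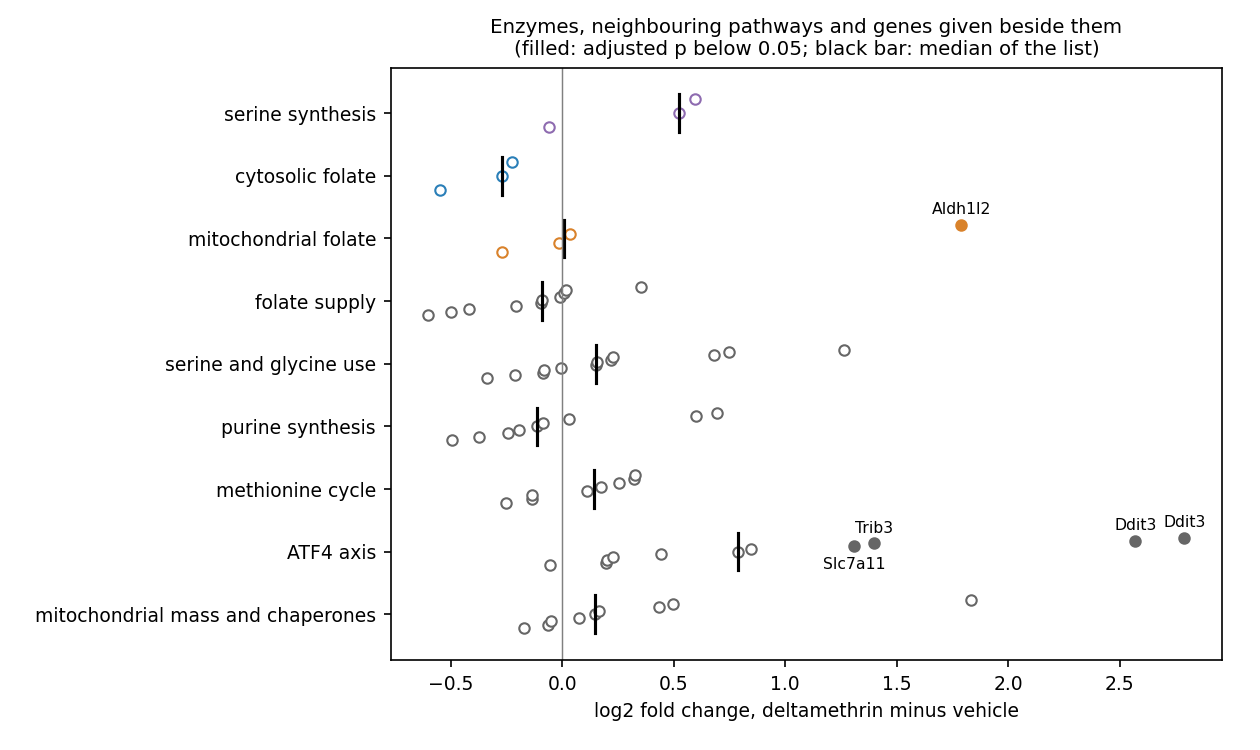
Log2 fold change (horizontal axis, deltamethrin minus vehicle) of every measured probe set in the 3 enzyme groups and in the lists around them, with a black bar at each list's median. Filled points passed an adjusted p below 0.05: Aldh1l2, Ddit3 (2 probe sets), Trib3 and Slc7a11.

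Genes of the ATF4 axis were set beside the members because several members belong to it. Of 11 probe sets for 10 genes, 4 were called higher and 0 lower in limma, beside 0.356% and 0.0766% of all probe sets. Those 4 included both Ddit3 probe sets, and the median log2 fold change of the 11 was 0.79. At an unadjusted p below 0.05, 7 were higher (6.83% of all probe sets), and with a mean-variance trend 6 were called higher (2.25% of all probe sets). Ddit3, the stress factor CHOP, had 2 probe sets with estimates of 2.57 ± 0.26 and 2.79 ± 0.26 (SE). Trib3, a pseudokinase induced by ATF4, rose by 1.40 ± 0.17 and Slc7a11, the cystine transporter, by 1.31 ± 0.17. The 2 further genes called with the trend were Chac1, a glutathione-degrading enzyme, at 0.85 ± 0.18 (limma adjusted p = 0.142, with the trend 0.0123) and Sesn2, a stress-induced sestrin, at 0.79 ± 0.16 (limma adjusted p = 0.136, with the trend 0.0479). Asns, another amino acid enzyme of the ATF4 programme, was at -0.06 ± 0.18 (limma adjusted p = 0.930), close to the estimates of Psat1, Shmt2 and Mthfd2. All of these were bright, with means at percentile 99.96 (Asns), 99.4 (Psat1), 97.9 (Shmt2) and 97.4 (Mthfd2) of all probe sets. Whether their brightness affected the estimates was not tested. The Atf4 transcript itself was at 0.23 ± 0.16 (limma adjusted p = 0.598). Chac1, Sesn2, Asns and Atf4 were named after their values were seen.

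The nearest patterns to Aldh1l2 over the 4 arrays, by Euclidean distance between mean-centred log2 values among named probe sets above the median level, were those of Nfu1, Gnpda1 and Ndrg1. Nfu1, a mitochondrial iron-sulfur cluster protein, had log2 values of 12.48 and 12.84 with deltamethrin, against 10.66 and 11.06 with vehicle, at a distance of 0.12. Gnpda1, an amino sugar deaminase, was at a distance of 0.13 with a log2 fold change of 1.91, and the stress-responsive gene Ndrg1 at 0.16 with 1.83. Ndrg1 had log2 values of 6.97 and 6.95 with deltamethrin, against 4.91 and 5.35 with vehicle, so it was above the median level of 5.60 only through its deltamethrin arrays. With 4 arrays, likeness of this kind describes little more than a similar fold change.

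General mitochondrial genes were set beside the mitochondrial enzymes. Of 9 measured chaperone, protease and mass genes 0 passed in limma, 2 were higher at an unadjusted p below 0.05 (6.83% of all probe sets), and the median was 0.15. Lonp1, the matrix protease, had log2 values of 13.39 and 13.85 with deltamethrin, against 11.45 and 12.12 with vehicle. Its estimate was 1.84 ± 0.28 (limma adjusted p = 0.0728). With a mean-variance trend it was called higher (adjusted p = 0.00196), as were 2.25% of all probe sets. Clpp, the other matrix protease in the list, was at 0.44 ± 0.17 (limma adjusted p = 0.340). The remaining 7 had estimates from -0.17 to 0.50.

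Cell identity was checked on marker lists. Of 11 neuroblastoma and sympathetic markers 9 were measured, and all 9 were above the array-wide median level in at least 1 group. Their summed log2 value was 110.47 and 108.11 with deltamethrin, against 113.70 and 113.02 with vehicle. Of the 9 estimates 8 were below 0, beside 11744 of 22206 over all probe sets, and 0 passed in limma. At an unadjusted p below 0.05, 5 were lower (6.84% of all probe sets) and 1 was higher, Th, the rate-limiting enzyme of catecholamine synthesis, at 0.90 ± 0.27. With a mean-variance trend 2 were called lower (1.38% of all probe sets): Isl1, a transcription factor of sympathetic neurons, at -1.14 ± 0.17 (limma adjusted p = 0.0740, with the trend 0.00173) and Ret, a receptor tyrosine kinase, at -0.66 ± 0.17 (limma adjusted p = 0.187, with the trend 0.00701). These 3 markers were named after their values were seen. Astrocyte markers other than Sox9 were dim in both groups (6 of 7), as were 4 of 4 fibroblast and 4 of 5 microglial markers. Astrocyte markers summed to 36.14 and 36.11 with deltamethrin, against 36.59 and 36.89 with vehicle. Fibroblast markers summed to 18.13 and 19.27 with deltamethrin, against 18.73 and 18.99 with vehicle, and microglial markers to 20.53 and 20.34 with deltamethrin, against 19.89 and 19.79 with vehicle. In RNA from a whole culture of this line, fewer cells carrying a marker and less of its RNA per cell cannot be told apart. The part of the lower neuroblastoma markers in the values of the enzymes was not tested.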

How the data were processed

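Total RNA (500 ng, RNA integrity number above 9.0) was labelled for Affymetrix Clariom S Mouse arrays, per the labels' protocols. The authors' deposited table holds log2 values, 1 per probe set and array, spanning 1.92 to 18.75, from which the log2 scale was inferred. The submitters' processing notes name RMA and Transcriptome Analysis Console, with versions not given in the sources read here. Probe sets were named from the platform's annotation (19572 of 22206 had 1 symbol, 2634 none).

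Deltamethrin minus vehicle was fitted over all probe sets with limma 3.58.1 (R 4.3.3, lmFit and eBayes, 2 residual and 4.43 prior degrees of freedom). All tests were two-sided with Benjamini-Hochberg adjustment, and an adjusted p below 0.05 was called. Errors are SD or SE with n = 2 arrays per group. The fit was run on data simulated from its own variance model, which cannot test how well that model suits these arrays. The members and lists were chosen with earlier results of these data known. Of each pathway list, the called genes of largest change (at most 4) or, with none called, the 2 of smallest p were named, and the 3 nearest patterns of each called member. Genes of a list without a matched probe set were not analysed here. Normalization, variance model, dim probe sets, the replicate number, the threshold and single arrays were varied.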

Additional observations from a re-analysis of the deposited data

How the results depend on the processing

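The count of 96 changed probe sets became 312 above the 40th percentile of mean level, 806 with a mean-variance trend, 5 at an adjusted p below 0.01, and 0 without moderation (2293 at an unadjusted p below 0.05). Leaving out any 1 array gave 0 calls in limma each time, with 1631 to 2779 probe sets at an unadjusted p below 0.05. The count of 1 changed member was 2 with a mean-variance trend (Aldh1l2 and Psph), 0 without moderation (2 at an unadjusted p below 0.05), 0 at an adjusted p below 0.01 and 0 whenever an array was left out. With the replicate number of the titles as a block, limma called 0 probe sets and 0 members, with 3221 and 4 at an unadjusted p below 0.05; same-numbered arrays deviated with a correlation of 0.13, and the labels do not say that the numbers pair the samples. Fewer residual degrees of freedom remain with a block or with an array left out. The cause of the changed counts was not tested for any setting.

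The Aldh1l2 estimate lay between 1.61 and 1.98 over 13 alternative fits and was called in 7 of them, with adjusted p from 0.000443 to 0.678. Of 130 member results under alternatives, 116 kept direction and call, and 2 more were not called with an estimate of exactly 0 (Mthfd2 without deltamethrin replicate 1 and Psat1 without deltamethrin replicate 2). Estimates near 0 turned sign: Mthfd2 was at 0.0175 with quantile normalization, at 0.0294 with cyclic loess and from -0.125 to 0.095 without single arrays, and Psat1 was at 0.0022 with cyclic loess and from -0.16 to 0.04 without single arrays. The mitochondrial minus cytosolic difference of 0.73 ran from 0.68 to 0.79 without single arrays. In settings chosen after seeing the data it was 0.27 without Aldh1l2, 0.30 without Aldh1l2 and Aldh1l1, and 0.38 with serine synthesis on the cytosolic side. The isozyme differences kept their direction under all normalizations and left-out arrays. The smallest was 0.12 for the Shmt pair without vehicle replicate 2. In every pair both deltamethrin arrays were above both vehicle arrays, so leaving out a single array could not turn the sign. In the Mthfd1l pair the nearest arrays were at 0.15 and 0.12. Among single probe sets 43.9% separated in either direction and 20.3% upward, and 2 of the pairs share Mthfd1. The separation of the pairs is therefore not a result about these enzymes. Median centring cancels in a within-array difference and could not change it either. The number of arrays and the lack of detection calls limit what can be said of dim probe sets such as Aldh1l1.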
